A study of Mus musculus with 8 samples.

Results

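The genes described here encode the machinery of oxidative phosphorylation, measured in mouse leg muscle with and without a plasmid for the transcription factor ATF4. They are the genes whose symbol begins with Nduf, Uqcr, Cox4 to Cox8 or Atp5, together with the Sdha to Sdhd genes and Cyc1. A probe set had to be annotated to exactly 1 gene, and this gave 61 genes with 1 probe set each, out of 16755 probe sets. Complex I contributed 33 genes, complex II 4, complex III 6, complex IV 10 and complex V 8. Cycs, the gene of cytochrome c, and the subunits encoded by mitochondrial DNA had no such probe set and are not analysed here. A further 7 probe sets listed a matching symbol beside other genes and were left out. Of the 61 genes, 6 are assembly factors of complex I that share the Nduf prefix and are no subunits of the finished enzyme.

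Oxidative phosphorylation takes electrons from NADH through complex I and from succinate through complex II, passes them over ubiquinone to complex III, over cytochrome c to complex IV and on to oxygen. The protons pumped on the way drive complex V, the ATP synthase. Skeletal muscle depends on it for sustained work, and slow and oxidative fibres hold more of it than fast glycolytic ones. ATF4 is a transcription factor of the integrated stress response that raises genes for making and importing amino acids, and mitochondrial faults are one of the stimuli that raise it.

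Male C57BL/6 mice aged 8 weeks received DNA into the tibialis anterior, a fast muscle of the lower leg, by electroporation. The left muscle was given 25 µg of empty pcDNA3 vector and the right muscle 25 µg of pCMV-ATF4-FLAG, in which a viral promoter drives tagged ATF4 in whichever cells take up the plasmid. RNA was taken 11 days later from fed animals, and the experiment was carried out 4 times, giving 4 exon arrays per group that are paired by experiment. Leg and plasmid cannot be told apart in this design. Neither the number of mice behind an experiment nor the share of fibres that took up plasmid is stated, so p-values measure only the spread between these experiments. All values are log2 values of a probe set, and all differences are ATF4 minus empty vector on that scale. Since whole muscle was used, fewer cells of a type and less RNA per cell cannot be told apart.

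The tissue label was checked with 9 markers of skeletal muscle fibres, such as Ckm, Acta1 and Tnnt3. Of these, Myh4 had no probe set of 1 gene. The 8 with a probe set were bright on all arrays, and their mean per array lay between 10.22 and 10.36 with empty vector and between 10.13 and 10.37 with ATF4. Atf4 itself differed by 0.18 (SE 0.11, adjusted p = 0.846, limma), with 0.24, 0.31 and 0.24 in experiments 1 to 3 and -0.053 in experiment 4. In the same fit Tnni1, slow troponin I, rose by 1.26 (SE 0.11, adjusted p = 0.025). The mean of 4 slow fibre markers differed by 0.60, 0.34, 0.68 and 0.18 in experiments 1 to 4, lying between 5.73 and 6.24 with empty vector and between 5.91 and 6.93 with ATF4. The list was split: Tnni1, Tnnc1 and Atp2a2 were higher in 4 of 4 experiments, while Myl2, a slow myosin light chain, differed by -0.86 (SE 0.34, adjusted p = 0.796, limma) and was lower in 4 of 4, with -2.39 in experiment 4. Of 6 measured macrophage markers 5 had a positive difference and 0 passed the test, the lowest adjusted p being 0.719 for C1qb (limma). The mean of the macrophage markers differed by 0.26, 0.43, 0.12 and 0.27 in experiments 1 to 4, lying between 5.25 and 6.31 with empty vector and between 5.51 and 6.43 with ATF4. In experiment 3, 3 of the 6 were lower and their median difference was 0.0097. Means of the other lists differed by -0.12 to 0.33 for 6 fibroblast markers, by -0.21 to 0.22 for 5 adipocyte markers and by -0.22 to -0.018 for 5 endothelial markers. The part of these cell types in the results was not tested.

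Upstream sequence, 250 bases before the start site, was found for 49 of the 61 genes in RefSeq (GRCm38.p6). The motif of NRF1 was searched on both strands. NRF1 is a regulator of many nuclear genes of the respiratory chain. The motif occurred upstream of 7 of 49 members (14.3%), against 6.88% of the 11869 genes on the array with such sequence. Among the motifs searched here and below, this was the motif whose share differed most between members and all genes. It was picked for printing after these shares were seen, and the difference was not tested. One match of each of the 7 genes is printed 5′ to 3′, with the motif in capitals.
Cox6a1 (chr5:115349101-115349130, minus strand): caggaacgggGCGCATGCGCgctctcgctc
Ndufa5 (chr6:24527697-24527726, minus strand): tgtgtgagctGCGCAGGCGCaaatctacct
Ndufa8 (chr2:36049349-36049378, minus strand): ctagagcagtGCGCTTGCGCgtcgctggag
Ndufaf4 (chr4:24897960-24897989, plus strand): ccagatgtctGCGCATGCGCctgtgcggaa
Ndufs6 (chr13:73328483-73328508, minus strand): cgactgctgtGCGCCTGCGCcggcac
Sdha (chr13:74350319-74350348, minus strand): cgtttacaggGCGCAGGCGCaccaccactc
Sdhd (chr9:50603909-50603938, minus strand): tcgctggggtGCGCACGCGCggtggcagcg
Cox6a1 held 2 matches and Sdha 3. The 7 genes spread over complex I with its assembly factors (4), complex II (2) and complex IV (1). Letters that match are a description and not a measured binding site.

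The amino acid response element through which ATF4 acts was searched as TGATGNAA on both strands. It lay upstream of Asns, asparagine synthetase, a well-known ATF4 target, as shown here with the element in capitals.
Asns (chr6:7693215-7693242, minus strand): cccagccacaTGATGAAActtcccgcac
Asns differed by 1.19 (SE 0.14, adjusted p = 0.0741, limma) and was higher in 4 of 4 experiments. These letters occurred upstream of 0 of 49 members and of 3.08% of all genes with sequence. CCGGAAG, the core bound by ETS factors, occurred in 12.2% of members and 11.4% of all genes, and TATAAA in 10.2% and 12.1%. The last pairs of shares are close, and the absence of letters in a window says nothing about a factor elsewhere.

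None of the 61 genes passed the test. At an adjusted p under 0.05 (limma, Benjamini-Hochberg over all 16755 probe sets) 0 of 61 members were called, where 0.0179% of all probe sets were. The lowest adjusted p among the members was 0.754. At an unadjusted p under 0.05, 2 members were lower and 0 were higher, which is 3.28% and 0% of members, against 2.77% of all probe sets lower and 3.23% higher. The share of lower members is near that of the array as a whole.

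The differences were small as well as unresolved. They ran from -0.37 to 0.33, and the median over the 61 members was -0.065, against 0.017 over all probe sets. The 95% interval of the difference lay inside a 1.5-fold change either way for 52 of 61 members, and for all 61 it excluded a 2-fold fall and a 2-fold rise. The 9 members whose interval reached past 1.5-fold on either side were Ndufaf4, Ndufaf5, Ndufa1, Ndufa7, Ndufb2, Ndufb11, Cox7a2, Cox7b2 and Atp5j2, of which Ndufaf5 and Ndufb2 are named for this reason alone. A p that misses the threshold does not show equal levels, and these intervals are what the data bound.

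**Figure D1:**
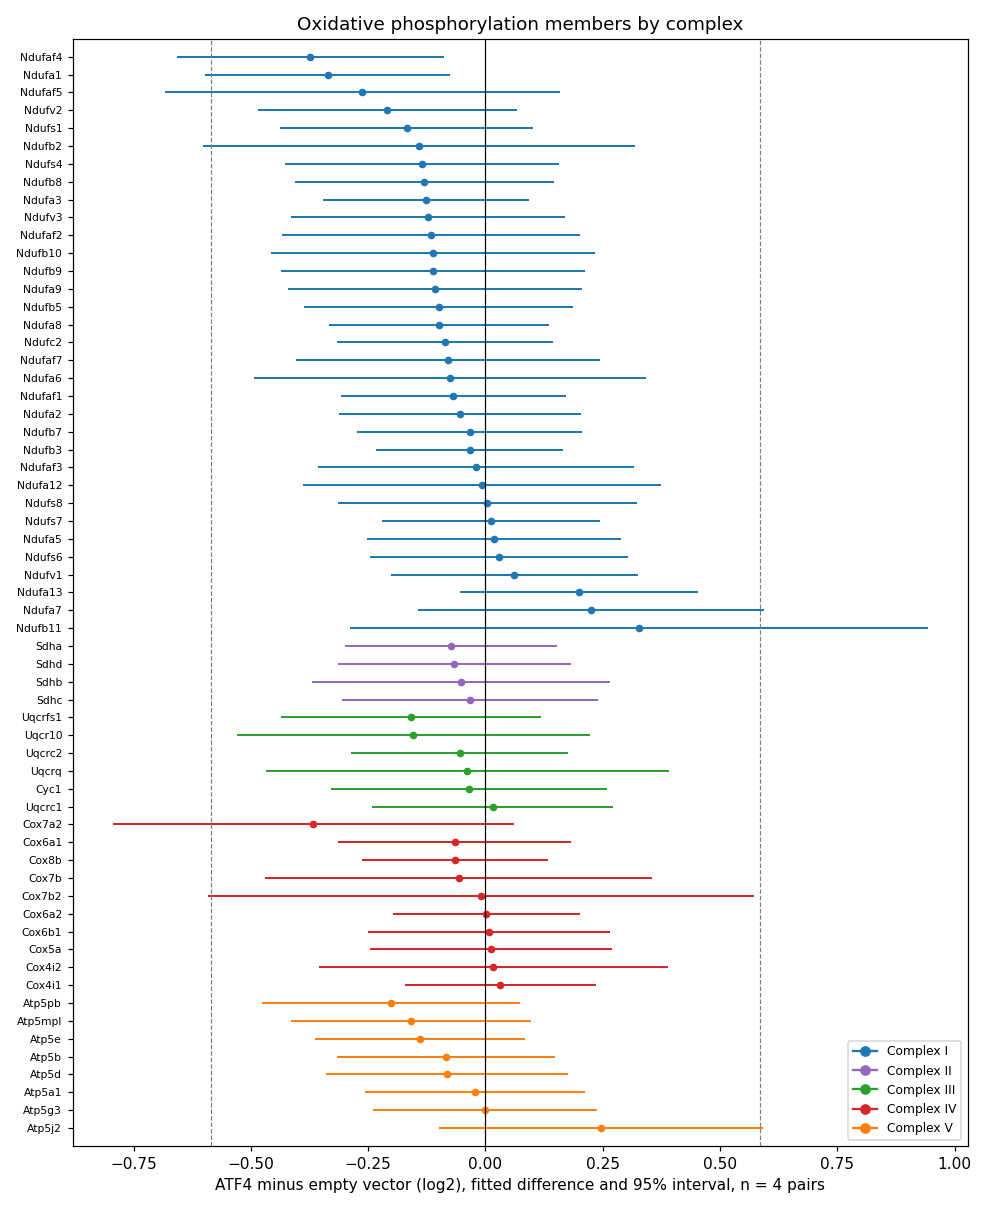
Fitted difference of each of the 61 members, in log2 units and as ATF4 minus empty vector, with its 95% interval (n = 4 pairs), ordered within complexes I to V; dashed lines mark a 1.5-fold change. Of the 61 intervals 59 contain 0, and the 2 that do not belong to Ndufaf4 and Ndufa1.

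By direction 46 members were lower and 15 higher in the fitted difference, against 7629 lower and 9126 higher of all 16755 probe sets. The split of the members depended on the scaling of the arrays: it was 56 and 5 with median centring, 30 and 31 with quantile normalization and 33 and 28 with cyclic loess normalization, the last chosen after seeing the data. Without experiment 4 it was 34 and 27, and the median over members was -0.0069. Of the members, 5 were lower in 4 of 4 experiments (8.2%, against 6.64% of all probe sets) and 0 were higher in 4 of 4 (8.25% of all probe sets). The 5 were Ndufa1, Ndufa3, Ndufaf4, Atp5e and Cox8b, of which Ndufa3 is named only for this count. Values of the ATF4 arrays lay wholly below those of the empty vector arrays for 1 member, Ndufa1 (1.64%, against 0.752% of all probe sets), and wholly above for 0 (1.41% of all probe sets).

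Experiment 4 stood apart from the other 3. The median difference over the 61 members was -0.018, -0.019 and -0.020 in experiments 1 to 3 and -0.20 in experiment 4. In experiments 1 to 3, 32, 33 and 37 of the 61 members were lower, and in experiment 4, 46 were. These are 52.5%, 54.1%, 60.7% and 75.4% of members. Of all probe sets 51.9%, 49.8%, 47.4% and 42.8% were lower in experiments 1 to 4. The empty vector array of experiment 4 had the highest median over members of its group (8.04, the others 7.72 to 7.93), and the ATF4 array of experiment 4 the lowest of its group (7.76, the others 7.80 to 7.86).

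The members are bright, and in experiment 4 most other bright probe sets were lower. The share was 81.4% at a mean level of 6 to 7, 85.1% at 7 to 8, 83.3% at 8 to 9 and 83.6% at 9 and over. Of the 61 members 51 lay in the brightest 10% of probe sets. In experiment 4 the other probe sets with a mean level of 7 to 8 had a median difference of -0.38 (n = 369), and the 16 members in that band -0.25. At 6 to 7 the medians were -0.34 for other probe sets (n = 974) and -0.25 for 6 members. At 8 to 9 the medians were -0.29 for other probe sets (n = 114) and -0.32 for 19 members, and at 9 and over -0.19 (n = 67) and -0.090 for 10 members. Below 6 both were positive, at 0.12 for other probe sets and 0.074 for 10 members. In experiments 1 to 3 the medians of other probe sets stayed between -0.066 and 0.056 in every band.

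**Figure D2:**
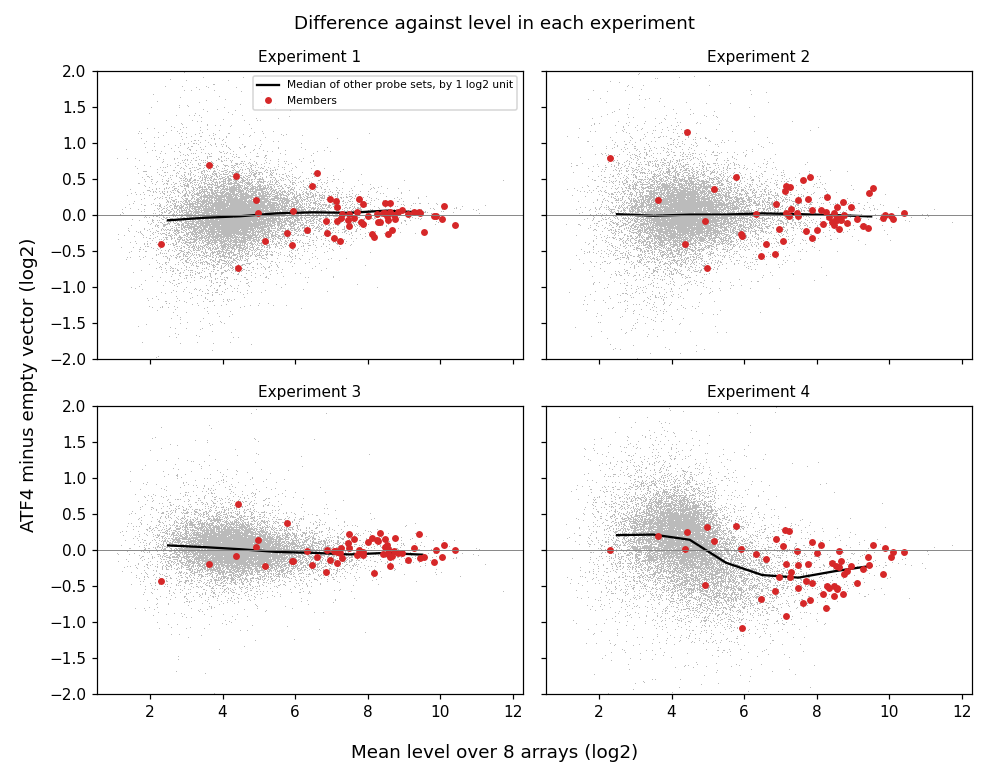
Difference in each experiment (vertical, log2, ATF4 minus empty vector, values beyond 2 not drawn) against the mean level over 8 arrays (horizontal, log2); grey dots are other probe sets, the black line their median per log2 unit with at least 20 probe sets, and red dots the 61 members. The line stays near 0 in experiments 1 to 3 and in experiment 4 goes from above 0 at low levels to -0.38 at 7 to 8, with the members around it.

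The same pair of arrays differed in spread. The ATF4 array of experiment 4 had an SD over probe sets of 1.14 and its partner 1.31, while ATF4 array and partner had 1.21 and 1.19 in experiment 1, 1.12 and 1.11 in experiment 2, and 1.29 and 1.32 in experiment 3. With quantile normalization, which gives all arrays one distribution, the median difference of the members in experiment 4 was -0.0011, with 31 of 61 lower, and with cyclic loess normalization it was 0.028, with 29 lower. The part of the narrower spread in the values of experiment 4 was not tested further.

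The complexes had medians close to 0 and to one another. The median fitted difference was -0.086 for complex I, -0.059 for complex II, -0.047 for complex III, -0.0041 for complex IV and -0.083 for complex V. The SD of these medians over the 4 experiments was 0.18, 0.040, 0.11, 0.051 and 0.11 in the same order. Without experiment 4 the medians of complexes I and III were above 0, at 0.015 and 0.029, and those of complexes II, IV and V were -0.055, -0.012 and -0.016. No test was made between complexes, since genes of a complex are not replicates. In experiment 4 the medians were -0.37, -0.11, -0.21, -0.0072 and -0.24 for complexes I to V, so complex I was the lowest and complex IV the nearest to 0. After quantile normalization the medians of experiment 4 were -0.075, 0.20, 0.088, 0.12 and 0.026. The bands of level also differed between the complexes. Complex IV had 4 of its 10 members at 9 and over and 4 below 6, while 22 of the 33 complex I genes lay between 7 and 9. In experiment 4 the median difference of other probe sets was 0.12 below 6 and -0.19 at 9 and over. It was -0.38 at 7 to 8 and -0.29 at 8 to 9. The part of level in the medians of the complexes was not tested.

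**Figure D3:**
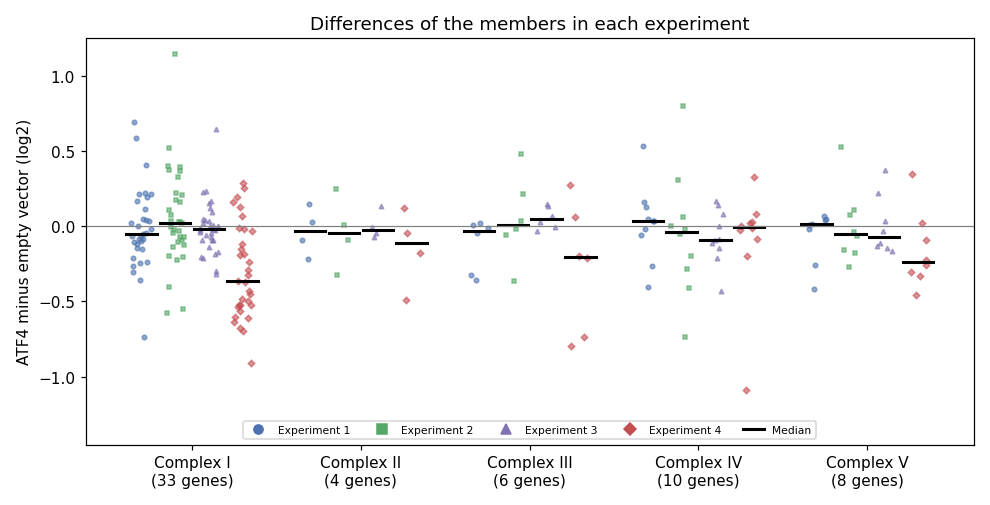
Differences of single members (points, log2, ATF4 minus empty vector) by complex and experiment, with the median of each complex as a black bar. Medians of experiments 1 to 3 lie between -0.089 and 0.049, and that of complex I in experiment 4 at -0.37.

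Complex I, the NADH dehydrogenase, is the largest complex and held both members with an unadjusted p under 0.05. Ndufa1 (probe set 7016340, X-linked), an accessory subunit of the membrane arm, stood at 8.38, 8.21, 8.30 and 8.50 with empty vector and at 8.08, 8.09, 7.99 and 7.90 with ATF4 in experiments 1 to 4. Every ATF4 array was below every empty vector array. The difference was -0.34 (SE 0.11, 95% interval -0.59 to -0.077, adjusted p = 0.754, limma), a level 1.26-fold lower. It was -0.25 without experiment 4 and -0.26 with quantile normalization, and its adjusted p lay between 0.386 and 1.000 over the settings tried. The upstream sequence of Ndufa1 lies within the neighbouring gene Rnf113a1 and is not shown.

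Ndufaf4 (probe set 6912213), an assembly factor of complex I whose NRF1 motif is shown above, stood at 7.11, 6.59, 7.22 and 7.17 with empty vector and at 7.03, 6.05, 6.93 and 6.61 with ATF4. It was lower in each pair, but the groups overlapped because experiment 2 was low in both muscles. The difference was -0.37 (SE 0.12, 95% interval -0.66 to -0.091, adjusted p = 0.754, limma). Ndufa1 and Ndufaf4 had unadjusted p of 0.0174 and 0.0159, and the next member, Cox7a2 of complex IV, 0.0823.

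The other assembly factors did not pass either. All 6, Ndufaf1 to Ndufaf5 and Ndufaf7, had a fitted difference below 0, with a median of -0.098. That median was -0.50 in experiment 4 and between -0.115 and -0.056 in the others, and -0.047 with quantile normalization.

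The 5 measured core subunits, Ndufv1, Ndufv2, Ndufs1, Ndufs7 and Ndufs8, carry the flavin and iron-sulphur centres that move the electrons. Their median difference was 0.0043, with 2 of 5 lower. In experiment 4 the median was -0.37 with 5 of 5 lower, and leaving out each experiment in turn gave -0.12 (without experiment 2) to 0.019 (without experiment 4). Ndufv2 (probe set 6856695), an iron-sulphur subunit of the NADH-binding module, had the lowest difference among them at -0.21 (SE 0.12). It stood at 8.81, 8.53, 8.54 and 8.79 with empty vector and at 8.54, 8.46, 8.56 and 8.26 with ATF4, and the groups overlapped.

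The other 22 subunits of complex I had a median of -0.092, with 17 lower. The median was -0.31 in experiment 4, and without that experiment it was 0.022. Ndufa13, also known as the cell death regulator GRIM-19, was the complex I member of smallest p among those with a positive difference, at 0.20 (SE 0.11). It stood at 7.09, 6.78, 7.31 and 6.95 with empty vector and at 7.28, 7.10, 7.306 and 7.24 with ATF4. Ndufb11, an X-linked membrane arm subunit, differed by 0.33 (SE 0.27) and had the highest SE of the members, with -0.73, 1.14, 0.65 and 0.25 in experiments 1 to 4. Without experiment 1 it differed by 0.68 (adjusted p = 0.740, limma). Its values lay between 3.71 and 5.11, and such low values may be background. Ndufa7 differed by 0.23 (SE 0.16) at levels of 3.25 to 4.03, where background cannot be separated from expression. At the other end of the signal range Ndufb3, at 10.24 to 10.58, differed by -0.033 (SE 0.085).

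**Figure D4:**
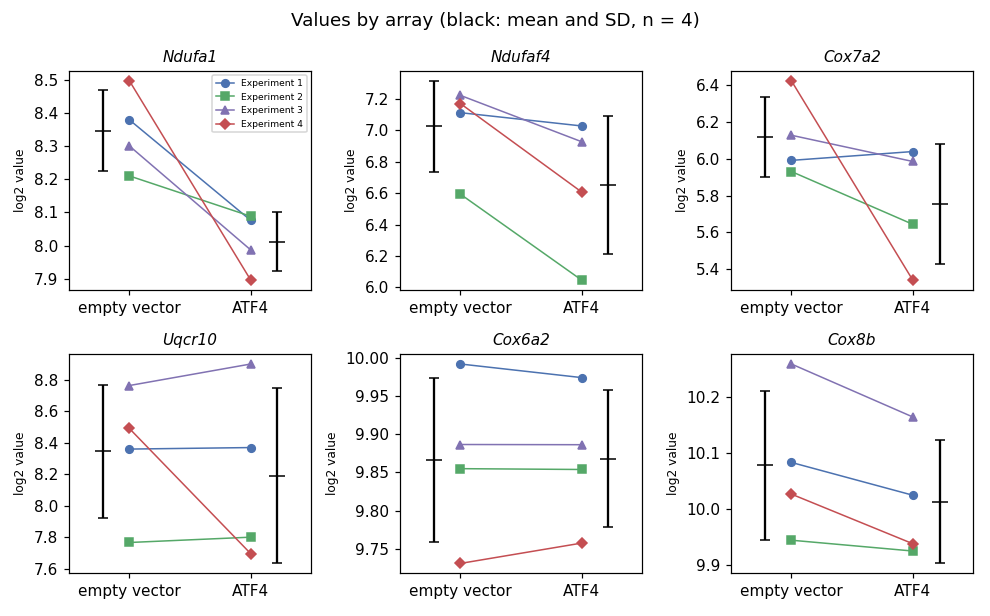
Log2 values by array of 6 members, with lines joining the muscles of an experiment and mean and SD (n = 4) in black; each panel has its own vertical range. Ndufa1 is lower in all 4 pairs without overlap, Cox7a2 is lower mainly and Uqcr10 only in experiment 4, and Cox6a2 stays within 0.027 of its partner in every pair.

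Complex II, succinate dehydrogenase, also works in the citric acid cycle. All 4 of its genes were measured, and their differences lay between -0.074 and -0.033. Sdha (probe set 6814387), the flavoprotein, stood at 8.46, 8.38, 8.37 and 8.60 with empty vector and at 8.48, 8.29, 8.33 and 8.42 with ATF4. Sdhb, the iron-sulphur subunit, stood at 8.44, 7.97, 8.11 and 8.70 with empty vector and at 8.35, 8.22, 8.24 and 8.21 with ATF4. The groups overlapped for both. Sdhc and Sdhd, the membrane anchors, differed by -0.033 (SE 0.12) and -0.066 (SE 0.11).

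Complex III, the cytochrome bc1 complex, had 6 measured members, with differences between -0.16 and 0.016. Uqcrfs1 (probe set 6812035), the Rieske iron-sulphur protein, stood at 7.35, 6.93, 7.02 and 7.30 with empty vector and at 7.03, 6.56, 7.01 and 7.36 with ATF4, a difference of -0.16 (SE 0.12). It was lower in experiments 1 and 2 (-0.32 and -0.37) and close to 0 in experiments 3 and 4 (-0.0079 and 0.059). Cyc1, cytochrome c1, differed by -0.034 (SE 0.13), Uqcrc1 and Uqcrc2, the core proteins, by 0.016 (SE 0.11) and -0.055 (SE 0.099). Uqcr10, a small accessory subunit, differed by -0.15 (SE 0.16), a value set by experiment 4 (-0.80), and by 0.060 without it.

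Complex IV, cytochrome c oxidase, has subunits with separate isoforms in muscle and in other tissues. The muscle isoforms measured were Cox6a2 and Cox8b. Cox6a2 (probe set 6971424) stood at 9.99, 9.85, 9.89 and 9.73 with empty vector and at 9.97, 9.85, 9.89 and 9.76 with ATF4, a difference of 0.0019 (SE 0.085, 95% interval -0.19 to 0.20). Paired muscles were nearly equal while experiments differed by more. Cox8b differed by -0.065 (SE 0.085) and was lower in 4 of 4 pairs with small differences in each. Its difference was 0.029 with quantile normalization, so its direction depended on the scaling.

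The isoforms of other tissues were Cox6a1 and Cox7a2. Cox6a1 differed by -0.065 (SE 0.11). Cox7a2 (probe set 6997211) stood at 5.99, 5.93, 6.13 and 6.43 with empty vector and at 6.04, 5.64, 5.99 and 5.34 with ATF4, a difference of -0.37 (SE 0.18, 95% interval -0.79 to 0.059, adjusted p = 0.846, limma). Experiment 4 alone gave -1.09, and without it the difference was -0.13. The muscle isoform of subunit 7a and the ubiquitous isoform of subunit 8 had no probe set of 1 gene and are not analysed here.

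Cox4i1, the common isoform of the largest nuclear subunit, stood at 10.06, 10.14, 10.11 and 10.05 with empty vector and at 10.19, 10.09, 10.19 and 10.03 with ATF4, a difference of 0.032 (SE 0.088). Cox4i2, its hypoxia-linked isoform, differed by 0.016 (SE 0.16) at a mean level of 4.37, and such low values may be background. Cox5a, Cox6b1 and Cox7b differed by 0.011 (SE 0.11), 0.0071 (SE 0.11) and -0.057 (SE 0.18). Cox7b2, at 1.60 to 3.30, was among the dimmest 10% of probe sets and differed by -0.010 (SE 0.25).

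Complex V, the ATP synthase, is made of a catalytic F1 head and a proton-conducting Fo part joined by stalks. The 4 F1 genes measured, Atp5a1, Atp5b, Atp5d and Atp5e, had a median of -0.083, all 4 below 0. Atp5e (probe set 6893635) stood at 9.88, 9.84, 10.05 and 9.77 with empty vector and at 9.86, 9.80, 9.89 and 9.44 with ATF4, lower in each pair with groups that overlapped (-0.14, SE 0.096). The median of the F1 genes was -0.28 in experiment 4 and between -0.071 and 0.029 in the others. With quantile normalization the fitted median was -0.020.

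Members of the Fo part and stalk went either way. Atp5pb, subunit b of the stalk, differed by -0.20 (SE 0.12) and Atp5j2, subunit f, by 0.25 (SE 0.15), each in 3 of 4 experiments. Atp5g3, one of the genes of the proton-carrying c ring, differed by -0.0011 (SE 0.10). Atp5mpl, a small membrane subunit, differed by -0.16 (SE 0.11), with -0.46 in experiment 4.

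Genes that build, serve or control these complexes did not pass the test either. Of 67 measured genes on lists of assembly factors, carriers, mitochondrial content and biogenesis regulators, 0 passed at an adjusted p under 0.05, and 2, both lower, had an unadjusted p under 0.05, where 2.77% of all probe sets were lower and 3.23% higher at that threshold. Of 30 assembly factors 21 were lower, with a median of -0.061, where 7629 of all 16755 probe sets were lower. In experiments 1 to 4 the median of the 30 was -0.039, -0.016, 0.035 and -0.15, with 17, 15, 12 and 20 lower. Nubpl, which inserts iron-sulphur clusters into complex I, differed by -0.92 (SE 0.31, adjusted p = 0.754, limma), with -0.66, -1.48, 0.27 and -1.79 in experiments 1 to 4. Its mean level of 3.54 is in a range where background cannot be separated from expression. Lyrm7 and Atpaf2, assembly factors of complex III and complex V, differed by 0.27 (SE 0.12) and 0.25 (SE 0.11). Both were higher in 4 of 4 experiments, as were 8.25% of all probe sets. Lyrm7 had a mean level of 4.21, and such low values may be background.

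Of 13 carriers and partners of the chain 11 were lower, with a median of -0.063, where 7629 of all 16755 probe sets were lower. In experiments 1 to 4 their median was 0.039, 0.00095, -0.10 and -0.29, with 5, 6, 7 and 9 of 13 lower. Vdac1, the main pore of the outer mitochondrial membrane, differed by -0.27 (SE 0.11, adjusted p = 0.810, limma) and was lower in 4 of 4. Atpif1, the inhibitor of the ATP synthase, differed by 0.15 (SE 0.10) and was higher in 4 of 4. Of 8 genes of mitochondrial content and dynamics 6 were lower, with a median of -0.13. In experiments 1 to 4 the median of these 8 was -0.0096, 0.028, -0.046 and -0.46, with 5, 3, 4 and 7 lower. Mfn1, a fusion protein, differed by -0.34 (SE 0.15), with -0.085, -0.056, -0.36 and -0.85 in experiments 1 to 4. Of 16 regulators of biogenesis 8 were lower, with a median of 0.0022. Ppargc1a, the coactivator PGC-1α, differed by -0.15 (SE 0.12), with -0.37, -0.045, 0.13 and -0.30 in experiments 1 to 4, and Nrf1 by 0.072 (SE 0.11). The mean level of Nrf1 was 4.50, where values may be background.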

How the data were processed

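Per the labels' protocols, RNA of each of the 8 samples was amplified and biotin-labelled for exon arrays. The deposited log2 values, 1 per probe set and array, were made by the authors with RMA, per the submitters' processing notes. The role of the build hg18 those notes name, and the settings of RMA, are not stated. Low values may be background, since no detection calls entered the work, and the number of arrays limits the precision. Genes were named from the platform annotation, for probe sets with 1 gene.

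All 16755 probe sets were fitted with limma 3.58.1 in R 4.3.3 (trend, experiment as a fixed block, 4.96 prior and 3 residual degrees of freedom), two-sided, with Benjamini-Hochberg adjustment. Simulated data with 200 changed probe sets were used to check it. Arrays were paired by experiment number, since the design takes both muscles of the mice. The deviations of paired arrays from their group means correlated at 0.065, 0.31, 0.55 and 0.051.

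The members, lists and the rule for named genes were chosen with earlier results of these data known. The rule takes up to 3 members of smallest p per direction and complex, those of highest and lowest signal, the isoform pairs, complex II and Cyc1, and up to 3 genes of smallest p of each other list. Medians over members carry no test. Alternatives were no block, a random block (statmod 1.5.0), other priors, median centring, quantile and cyclic loess normalization, filters on dim probe sets, array weights, the mean of a gene's rows, adjustment over single-gene rows, other thresholds, subunits only, and leaving out each experiment.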

Additional observations from a re-analysis of the deposited data

Results flagged for a closer look

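Of 111 groups of 4 values examined, 4 had 1 value far from the other 3, where chance gives about 6 (1 in 20). The median difference over the 61 members was -0.20 in experiment 4, against -0.020 to -0.018 in the others. The difference of Uqcr10 was -0.80 in experiment 4, against 0.0096 to 0.14. The ATF4 array of experiment 4 gave Cyc1 a value of 7.50, against 7.10 to 7.15 in the other ATF4 arrays. The ATF4 array of experiment 1 gave Sdhb a value of 8.35, against 8.21 to 8.24.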

How the results depend on the processing

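No member passed the adjusted threshold under any alternative, and the lowest adjusted p of a member was 0.386, with array weights. Without the replicate block the lowest was 1.000, the members lower at an unadjusted p under 0.05 numbered 1, and the other pathway genes at that threshold 1. Over all probe sets, those at an unadjusted p under 0.05 numbered 1006 with the block, 609 without it and 1063 with a random block, and those at an adjusted p under 0.05 numbered 3, 3 and 13. The fitted medians over members are the same with and without the block. Other pathway genes at an unadjusted p under 0.05 numbered 4 with a random block, 1 without trend, 1 with median centring, 5 with quantile normalization, 7 with array weights, 5 with cyclic loess and 0 under a threshold of 0.01, where members lower numbered 0. With subunits only, 1 member was lower at an unadjusted p under 0.05. Members higher at that threshold numbered 1 with quantile normalization, array weights or cyclic loess. Over all probe sets 1075, 1445 and 1090 passed it under these 3 settings, in either direction. Members lower in all experiments numbered 8 with median centring, and members higher in all numbered 4 with quantile normalization and 3 with cyclic loess. The shares of all probe sets for these counts are not given here. The median of complex II was 0.020 with quantile normalization and 0.015 with cyclic loess. That of the complex III core was 0.035 with quantile normalization. That of the muscle isoforms of complex IV was -0.069 with median centring, 0.046 with quantile normalization and 0.0068 with cyclic loess. The cause of these shifts was not tested.

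Leaving out each experiment gave 1 to 4 members lower and 0 to 2 higher at an unadjusted p under 0.05. Other pathway genes at that threshold numbered 2 to 4. Over all probe sets 768 to 1124 passed it, in either direction. In all 3 remaining experiments 9 to 15 members were lower and 1 to 4 higher. The shares of all probe sets in 1 direction in 3 experiments are not given here. These counts are thus not read as a result about the members. The median over all members ran from -0.093 to -0.0069, that of complex I from -0.12 to 0.015 and that of complex III from -0.099 to 0.029, both above 0 without experiment 4, and 6 to 18 members changed sign, most without experiment 4. The medians of all probe sets under the scalings were -0.020 with median centring, 0.0018 with quantile normalization and -0.0021 with cyclic loess. Each gene had 1 row, so the mean of rows gave the same values.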
